A study of Mus musculus with 16 samples.

Results

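The 10 genes described here encode enzymes that make or break down endocannabinoids, receptors for endocannabinoids and for serotonin, and the serotonin transporter. They were taken by name: Faah, Cnr2, Trpv1, Napepld, Mgll, Dagla, Daglb, Htr2b, Htr7 and Slc6a4. Each was read from the single probe set that named that gene alone, among 18820 genes measured on 16 Affymetrix whole-transcript arrays. The cells were RAW264.7, a transformed mouse macrophage-like line, so every array reports on 1 line and not on primary macrophages. There were 4 arrays in each of 4 groups, all kept for 24 h: lipopolysaccharide (LPS, a bacterial cell wall component, 1 µg/ml) with docosahexaenoyl serotonin (DHA5HT, serotonin joined to an n-3 fatty acid, 1 µM), written LPS+DHA5HT; LPS alone; DHA5HT alone; and vehicle control. Per the treatment protocol LPS alone was given with vehicle, and the vehicle is named as ethanol in the labels of the control arrays. For LPS+DHA5HT array 1 the treatment label names DHA5HT without LPS while its title names both, and the title was followed.

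Endocannabinoids are lipid messengers released from membranes on demand. In textbook terms NAPE-PLD, the product of Napepld, releases anandamide and its relatives, and the diacylglycerol lipases alpha and beta (Dagla, Daglb) release 2-arachidonoylglycerol. Fatty acid amide hydrolase (Faah) and monoacylglycerol lipase (Mgll) degrade these messengers. The cannabinoid receptor of immune cells is encoded by Cnr2, and the heat- and capsaicin-gated channel TRPV1 also responds to anandamide. N-arachidonoyl serotonin, a relative of DHA5HT, is known to inhibit the amide hydrolase and to block TRPV1. Htr2b and Htr7 encode serotonin receptors, and Slc6a4 encodes the serotonin transporter of the plasma membrane.

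All values are RMA log2 intensities, in which a difference of 1 is a 2-fold change, and errors are SD over 4 arrays except where given as SE. Arrays with LPS parted from arrays without it along principal component 1 (70.6% of variance). LPS+DHA5HT array 1, whose labels conflict, scored 22.7 there. The LPS arrays scored 31.4 to 36.2 and the DHA5HT arrays −33.6 to −31.0. Along component 2 (4.72%) LPS+DHA5HT array 4 lay apart, at −22.4, where the scores of the remaining 15 arrays ran from −9.36 to 10.0. Calls of members that use the LPS+DHA5HT group are also given without array 1 or array 4. All 12 macrophage markers, such as Cd68, Csf1r and Spi1, were bright, with means from 8.93 to 12.55.

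The value table carries no detection calls, so the level of background was taken from 47 measured genes that macrophages should lack, such as lymphocyte, epithelial, muscle and neuronal genes. Their median was 3.75 and their 90th percentile 4.72, and a gene counted as above background in a group when all 4 arrays of that group exceeded 4.72. By this rule 4 of the 10 genes, Daglb, Dagla, Napepld and Cnr2, were above background in every group, and the other 6, Faah, Mgll, Trpv1, Htr2b, Htr7 and Slc6a4, in none. Of all 18820 genes 50.5% were above it in every group, as were 4 of the 47 background genes themselves. By mean over the 16 arrays, Daglb and Napepld each exceeded all 47 background genes, and Cnr2 and Dagla each exceeded 45 of them. Probe sets differ in brightness at equal amounts of RNA, so these levels give no order among the genes. They sort them only by this rule, into above background and not above it. A transcript of few copies may lie below this limit, and a low value does not show that the gene is silent. The plot of mean signals beside the marker genes shows the gap between these sets of members.

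**Figure D1:**
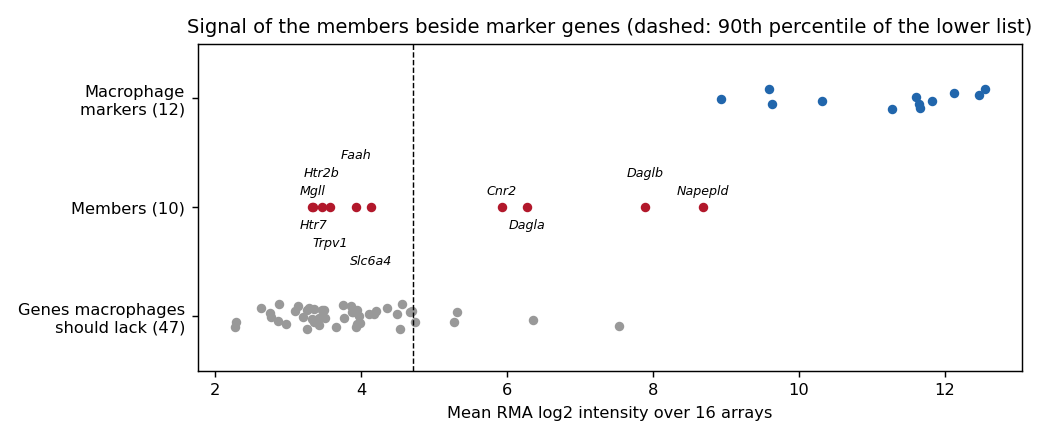
Mean RMA log2 intensity over 16 arrays (horizontal axis) of the 10 members, of 12 macrophage markers and of 47 genes that macrophages should lack; each point is 1 gene and the dashed line is the 90th percentile of the 47 genes, 4.72. The members with the lowest signals end at 4.14 (Slc6a4), and the next one is Cnr2 at 5.93.

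LPS against control asks how the macrophages changed these genes in response to the bacterial stimulus. Daglb, Dagla, Napepld and Cnr2 fell, and Faah, whose signal was not above background, rose. Over the 10 members 4 were lower and 1 was higher (limma, Benjamini-Hochberg adjusted p under 0.05 over 18820 genes), where 28.4% of all genes were called, 15.8% lower and 12.6% higher. Among the 9504 genes above background in every group 28.2% were called lower. The groups did not overlap for 3 of the 10 members (Daglb, Cnr2 and Faah) and for 29.8% of all genes. The median log2 change of the 10 members was −0.07, and that of all genes was 0.0041. LPS+DHA5HT against DHA5HT asks the same with DHA5HT in both groups. It uses none of the same arrays but shares the estimate of spread, so the p-values of these comparisons are not independent. There 4 members were lower and 0 higher, where 28.1% of all genes were called, 15.7% lower and 12.4% higher (27.9% lower among the genes above background in every group). The groups did not overlap for these 4 and for Faah, and for 28.5% of all genes. The members called lower were again Daglb, Dagla, Napepld and Cnr2, and no further member had an unadjusted p under 0.05.

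Daglb (probe set 10527213), the lipase that makes 2-arachidonoylglycerol, had the largest change of the members for LPS against control, and with DHA5HT in both groups its change was close to that of Cnr2. It read 7.51, 7.33, 7.49 and 7.27 in LPS+DHA5HT arrays, 7.07, 6.88, 7.11 and 7.12 in LPS arrays, 8.57, 8.57, 8.75 and 8.55 in DHA5HT arrays, and 8.44, 8.46, 8.62 and 8.51 in control arrays. The 8 arrays with LPS all lay below the 8 arrays without it, and the LPS+DHA5HT arrays formed a band of their own above the LPS arrays. The mean was 7.05 ± 0.11 with LPS and 8.51 ± 0.08 in control (n = 4 each), 2.75-fold lower (log2 change −1.46, SE 0.07, adjusted p = 8.84e-11). Of the 9504 genes above background in every group, 40 had a lower LPS change. With DHA5HT in both groups the mean was 7.40 ± 0.12 with LPS and 8.61 ± 0.09 without (n = 4 each), 2.32-fold lower (log2 change −1.21, SE 0.07, limma adjusted p = 1.24e-09).

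Dagla (probe set 10465943), which encodes the related lipase best known from neurons, changed less. It read 6.08, 6.05, 6.28 and 6.16 in LPS+DHA5HT arrays, 5.98, 6.04, 6.31 and 5.81 in LPS arrays, 6.53, 6.62, 6.63 and 6.32 in DHA5HT arrays, and 6.28, 6.47, 6.42 and 6.46 in control arrays. LPS array 3, at 6.31, was above control array 1, so these groups overlapped, whereas the LPS+DHA5HT arrays all lay below the DHA5HT arrays. Dagla averaged 6.03 ± 0.21 with LPS and 6.41 ± 0.09 in control (n = 4 each), a log2 change of −0.37 (SE 0.10, limma adjusted p = 0.00587). With DHA5HT in both groups it averaged 6.14 ± 0.10 with LPS and 6.53 ± 0.14 without (n = 4 each), a log2 change of −0.38 (SE 0.10, limma adjusted p = 0.0049).

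Napepld (probe set 10528332), the phospholipase gene of anandamide synthesis, also fell. It read 8.44, 8.62, 8.40 and 8.70 in LPS+DHA5HT arrays, 8.43, 8.58, 8.39 and 8.47 in LPS arrays, 9.05, 8.86, 8.86 and 8.99 in DHA5HT arrays, and 8.98, 9.01, 8.69 and 8.54 in control arrays. The control arrays fell into a higher pair, arrays 1 and 2, and a lower pair, and array 4 of the control group lay below LPS array 2. LPS gave 8.47 ± 0.08 and control 8.81 ± 0.23 (n = 4 each), a log2 change of −0.34 (SE 0.10, limma adjusted p = 0.0135). This call was lost without control array 1 (−0.28, adjusted p = 0.0543) and without control array 2 (−0.27, adjusted p = 0.0543). For LPS+DHA5HT against DHA5HT the arrays did not overlap, at 8.54 ± 0.14 with LPS and 8.94 ± 0.09 without (n = 4 each), a log2 change of −0.40 (SE 0.10, limma adjusted p = 0.0045).

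Cnr2 (probe set 10509122), the cannabinoid receptor gene of leukocytes, was the other member that fell more than 2-fold. It read 5.25, 5.55, 5.05 and 5.75 in LPS+DHA5HT arrays, 5.39, 5.09, 5.36 and 5.23 in LPS arrays, 6.75, 6.72, 6.40 and 6.67 in DHA5HT arrays, and 6.27, 6.44, 6.45 and 6.48 in control arrays. The arrays with LPS lay at 5.75 or below and those without at 6.27 or above. It averaged 5.27 ± 0.14 with LPS and 6.41 ± 0.10 in control (n = 4 each), 2.21-fold lower (log2 change −1.14, SE 0.12, limma adjusted p = 1.14e-06). With DHA5HT in both groups it averaged 5.40 ± 0.31 with LPS and 6.64 ± 0.16 without (n = 4 each), 2.36-fold lower (log2 change −1.24, SE 0.12, limma adjusted p = 5.02e-07). Each of these 4 LPS+DHA5HT against DHA5HT calls held without LPS+DHA5HT array 1 and without array 4, with 4 members lower in both cases. In bulk RNA a smaller share of cells with a transcript and less of it per cell cannot be told apart.

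**Figure D2:**
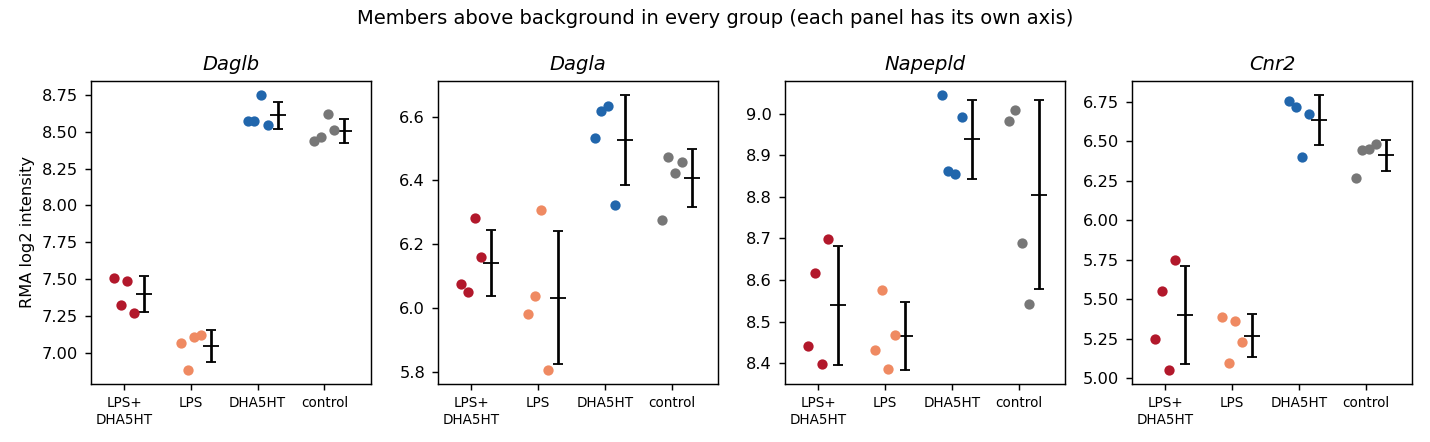
RMA log2 intensity (vertical axes, each with its own range) of the 4 members above background in LPS+DHA5HT, LPS, DHA5HT and control arrays; points are arrays 1 to 4 from left to right, and the bars give the mean ± SD. Daglb and Cnr2 show no overlap between arrays with and without LPS, and for Daglb the LPS+DHA5HT arrays (7.27 to 7.51) all lie above the LPS arrays (6.88 to 7.12).

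Promoter sequence from RefSeq on GRCm38.p6 was available for Daglb, Napepld and Cnr2 among the 4 members that fell. The 250 bases before the annotated start of these genes, each called lower with LPS, are shown. They are written 5′ to 3′ on the gene's strand with each CG dinucleotide in capitals. The windows are chr5:143464243-143464492 on the plus strand for Daglb, chr5:21701623-21701872 on the minus strand for Napepld, and chr4:135894939-135895188 on the plus strand for the first of the Cnr2 starts listed.
Daglb: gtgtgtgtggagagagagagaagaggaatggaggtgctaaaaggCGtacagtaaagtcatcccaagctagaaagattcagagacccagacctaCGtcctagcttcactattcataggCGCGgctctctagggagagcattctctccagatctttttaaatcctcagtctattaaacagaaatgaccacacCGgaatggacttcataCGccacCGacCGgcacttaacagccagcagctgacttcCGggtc
Napepld: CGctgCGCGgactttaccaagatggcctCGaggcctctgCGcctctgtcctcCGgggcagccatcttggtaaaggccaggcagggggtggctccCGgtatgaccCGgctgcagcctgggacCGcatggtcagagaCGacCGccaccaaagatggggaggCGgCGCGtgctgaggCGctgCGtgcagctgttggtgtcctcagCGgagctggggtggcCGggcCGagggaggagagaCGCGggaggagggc
Cnr2: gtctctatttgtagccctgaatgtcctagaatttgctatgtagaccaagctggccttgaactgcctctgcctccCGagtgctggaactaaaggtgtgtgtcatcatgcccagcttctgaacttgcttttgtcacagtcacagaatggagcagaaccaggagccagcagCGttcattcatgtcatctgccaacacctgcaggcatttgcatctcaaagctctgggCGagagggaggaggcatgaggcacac
The Napepld window held 21 CG dinucleotides, that of Daglb 9 and that of Cnr2 3, against a median of 6 over 32851 RefSeq promoters. None of the 3 windows, nor that of the other listed Cnr2 start, held a match on either strand to a form of the NF-kB motif (GGG, 2 bases of any kind, TTTCC), to the core of the interferon response element (GAAA, 2 bases of any kind, GAAA) or to TGANTCA, the AP-1 motif. The NF-kB letters occurred in 1.41% of all promoter windows of 250 bases, the interferon element in 2.98% and the AP-1 letters in 6.75%, so most promoters hold none of them and their absence here is a description of these windows only.

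Faah and Mgll, the hydrolase genes among the members, gave low signals. Faah (probe set 10515220) read 3.92, 4.11, 4.00 and 3.90 in LPS+DHA5HT arrays, 4.30, 4.03, 4.07 and 4.40 in LPS arrays, 3.89, 3.89, 3.72 and 3.76 in DHA5HT arrays, and 3.93, 3.90, 3.57 and 3.52 in control arrays. All LPS arrays lay above all control arrays, and every value was below 4.72. The mean was 4.20 ± 0.18 with LPS and 3.73 ± 0.21 in control (n = 4 each), a log2 difference of 0.47 (SE 0.10, limma adjusted p = 0.00164) between values not above background. The call held in each of 9 fits that left out 1 array, with differences from 0.40 to 0.54. Here and below, 1 of the 9 such fits for LPS against control left out LPS+DHA5HT array 1, which is in neither group. In the presence of DHA5HT Faah averaged 3.98 ± 0.09 with LPS and 3.82 ± 0.09 without (n = 4 each), a difference of 0.16 that did not pass (SE 0.10, limma adjusted p = 0.279), although these arrays did not overlap either. Mgll (probe set 10539894), the main hydrolase of 2-arachidonoylglycerol in many tissues, lay between 3.14 and 3.58 on all 16 arrays. Its difference for LPS against control was 0.02, with a 95% confidence interval from −0.20 to 0.25.

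The channel, the serotonin receptors and the serotonin transporter were likewise not above background. Trpv1 (probe set 10378349) lay between 3.26 and 3.93 over the 16 arrays, Htr2b (probe set 10356305) between 3.21 and 3.73, and Htr7 (probe set 10467182) between 3.11 and 3.65. Slc6a4 (probe set 10378816) lay between 4.04 and 4.29 and had the smallest spread of the 10 members, with an SD of 0.08 over all arrays. The groups overlapped for each of these 4 genes in all 4 pairwise comparisons. For LPS against control the differences were 0.07 for Trpv1 (95% confidence interval −0.18 to 0.31), −0.05 for Htr2b (−0.25 to 0.16), −0.10 for Htr7 (−0.26 to 0.06) and 0.02 for Slc6a4 (−0.12 to 0.16). These intervals come from limma and are not adjusted for the number of genes.

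**Figure D3:**
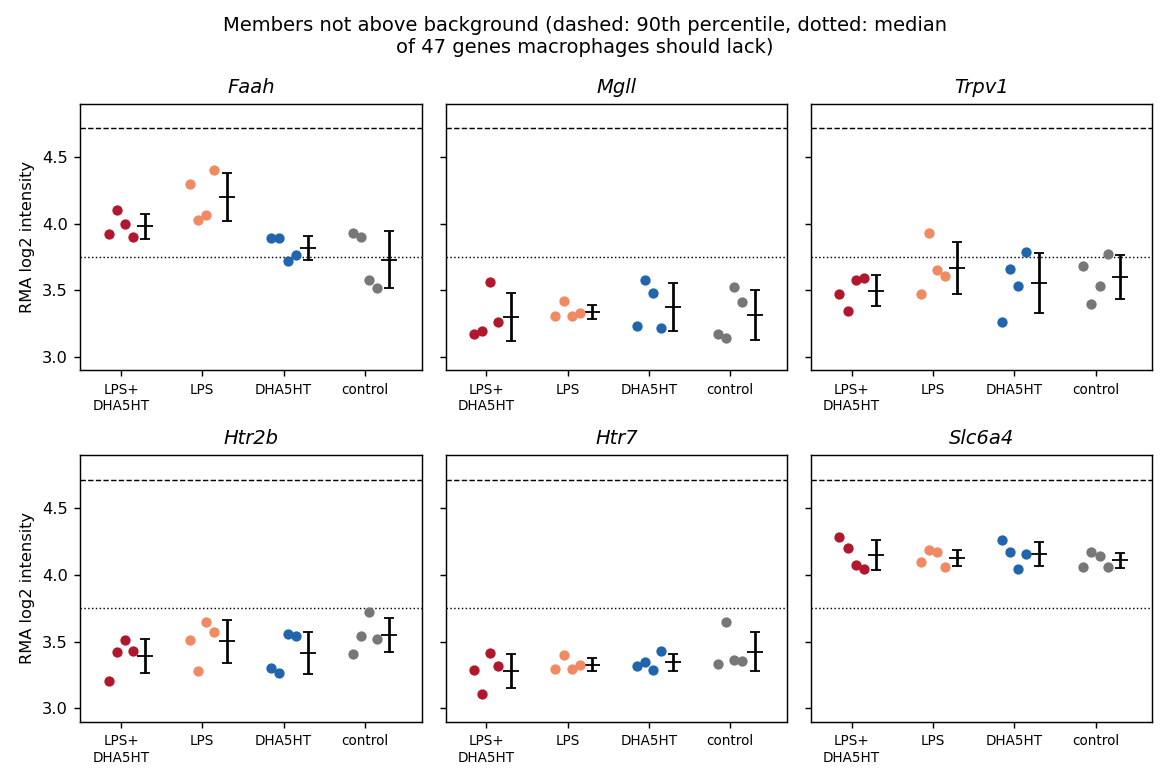
RMA log2 intensity (vertical axis, shared) of the 6 members not above background in LPS+DHA5HT, LPS, DHA5HT and control arrays; points are arrays 1 to 4 from left to right, bars the mean ± SD, the dotted line the median (3.75) and the dashed line the 90th percentile (4.72) of 47 genes that macrophages should lack. Faah lies between 4.03 and 4.40 in LPS arrays and between 3.52 and 3.93 in control arrays, and the other panels show overlapping groups.

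LPS+DHA5HT against LPS, the comparison that the series' design text describes, asks what DHA5HT did to LPS-treated cells. Daglb was higher with DHA5HT, and no other member passed. Daglb averaged 7.40 ± 0.12 with both agents and 7.05 ± 0.11 with LPS alone (n = 4 each), 1.28-fold higher (log2 change 0.35, SE 0.07, limma adjusted p = 0.0237), and the 4 arrays of each group did not overlap. So 1 of the 10 members was called, in the higher direction, where 1.79% of all genes were called, 0.818% higher and 0.972% lower (1.42% higher among the genes above background in every group). Daglb was also the only member whose groups did not overlap, which held for 7.89% of all genes. The call was lost without LPS+DHA5HT array 1 (0.32, adjusted p = 0.0719), LPS+DHA5HT array 3 (0.32, adjusted p = 0.0563) or LPS array 2 (0.30, adjusted p = 0.0836), and when the 8 compared arrays were fitted alone (adjusted p = 0.0979). Without LPS+DHA5HT array 4 the change was 0.40 (adjusted p = 0.0224). For scale, the IL-23 subunit genes Il12b and Il23a changed by −1.80 and −1.18 in the same comparison, and the cytokine gene Il6 by −0.66.

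The other members above background had differences of 0.13 for Cnr2 (95% confidence interval −0.13 to 0.39), 0.11 for Dagla (−0.09 to 0.31) and 0.07 for Napepld (−0.13 to 0.28). On a scale from the control mean (0%) to the LPS mean (100%), the LPS+DHA5HT arrays lay at 68.3%, 80.7%, 69.5% and 84.7% for Daglb. For Cnr2 they lay between 57.8% and 118.9%, so these arrays fell on both sides of the LPS mean. For Dagla they lay between 33.8% and 95.2%, and for Napepld between 31.1% and 119.7%. The LPS+DHA5HT group means lay at 75.8% for Daglb, 71.0% for Dagla, 78.3% for Napepld and 88.4% for Cnr2. Among 136 genes with an LPS change of 4-fold or more, none of them a member, the medians of the same arrays lay between 78.5% and 90.8%. LPS+DHA5HT arrays 2 and 4 gave the higher values of both Cnr2 (5.55 and 5.75) and Napepld (8.62 and 8.70) within their group, while for Daglb these were the lower ones (7.33 and 7.27). Faah was 3.98 ± 0.09 with both agents and 4.20 ± 0.18 with LPS alone (n = 4 each), a difference of −0.22 that did not pass (SE 0.10, limma adjusted p = 0.353).

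DHA5HT against control asks what the conjugate did without LPS. Limma called 0 of the 10 members, with 0 at an unadjusted p under 0.05, where 0.6% of all genes were called. The arrays of both groups overlapped for every member, and 5.89% of all genes had groups that did not. The differences of the 10 members lay between −0.13 (Htr2b) and 0.22 (Cnr2). Cnr2 averaged 6.64 ± 0.16 with DHA5HT and 6.41 ± 0.10 in control (n = 4 each), a difference of 0.22 with a 95% confidence interval from −0.04 to 0.48 (limma adjusted p = 0.587). For Daglb it was 0.10, with an interval from −0.05 to 0.26. Whether the DHA5HT effect in LPS-treated cells differed from that in untreated cells was tested as an interaction, in which limma called 0 of the 10 members, where 0.329% of all genes were called. An unadjusted p under 0.05 was found for 2 members and for 7.65% of all genes. Those 2 members were Daglb (0.25, SE 0.11, adjusted p = 0.581) and Faah (−0.31, SE 0.14, adjusted p = 0.653), so a difference between the DHA5HT responses with and without LPS was not shown for either gene.

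**Figure D4:**
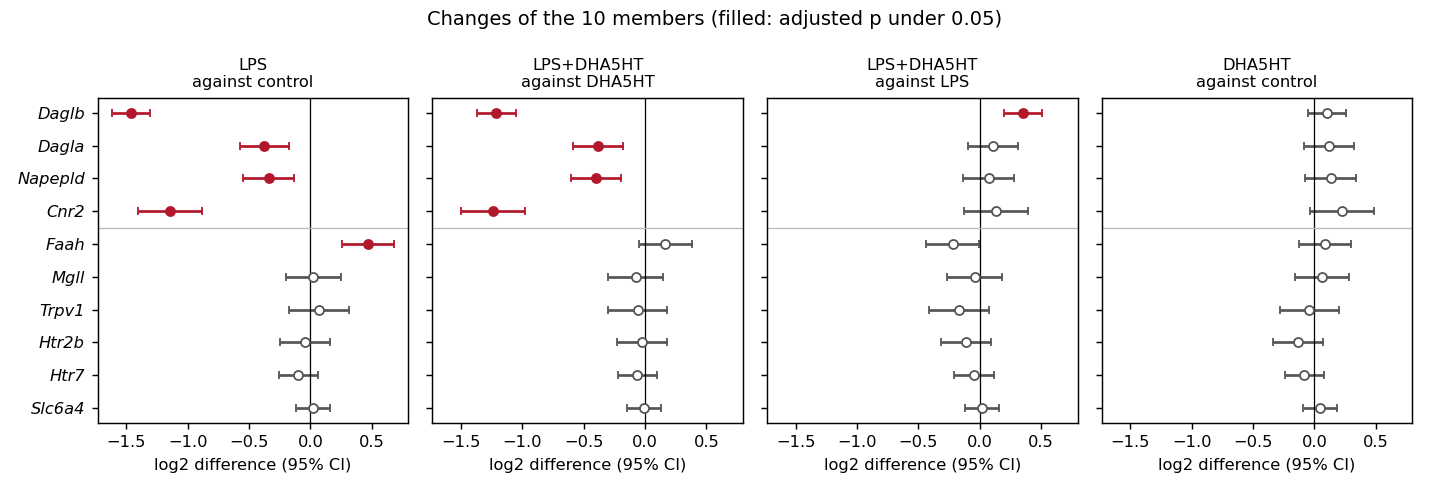
Log2 difference with its 95% confidence interval (horizontal axes) for the 10 members in 4 comparisons; filled red points have an adjusted p under 0.05, and the grey line parts the 4 members above background (upper rows) from the other 6. Daglb, Dagla, Napepld and Cnr2 lie left of 0 in both LPS comparisons, from −0.34 to −1.46, and Daglb alone has a filled point, at 0.35, for LPS+DHA5HT against LPS.

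The wider endocannabinoid pathway was read from 30 further genes of receptors, alternative synthesis routes, hydrolases, carriers and oxidising enzymes, all of them measured. With LPS 6 rose and 5 fell, 36.7% of the list where 28.4% of all genes were called, and the median change was 0.02. In LPS+DHA5HT against DHA5HT the counts were also 6 and 5, where 28.1% of all genes were called, with a median of 0.0079. Of the 30 genes 15 were above background in at least 1 group. The cannabinoid receptor gene Cnr1, best known from neurons, was not among them, at 3.06 ± 0.10 with LPS and 3.08 ± 0.05 in control (n = 4 each).

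Among receptors and channels Gpr18, an orphan receptor that N-arachidonoyl glycine has been reported to activate, rose 7.08-fold, to 9.20 ± 0.10 with LPS against 6.38 ± 0.34 in control (n = 4 each, limma adjusted p = 1.09e-11). It rose 5.80-fold with DHA5HT in both groups. Trpv2, a channel related to TRPV1, rose by 0.34, to 10.12 ± 0.05 with LPS against 9.78 ± 0.11 in control. Ptgs2 encodes cyclooxygenase-2, which oxygenates arachidonic acid and also endocannabinoids. It rose by 2.92 with LPS, and with DHA5HT alone it fell to 9.21 ± 0.41, against 10.13 ± 0.26 in control (log2 change −0.92, SE 0.16, limma adjusted p = 0.00572). This DHA5HT call was lost when the 8 compared arrays were fitted alone (adjusted p = 0.0815).

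In the routes to anandamide that bypass NAPE-PLD, Gde1 rose and Ptpn22 fell with LPS. Abhd4, a further gene of these routes, averaged 8.48 ± 0.13 with LPS and 8.54 ± 0.07 in control and did not pass. Gde1, a glycerophosphodiesterase, rose by 0.62, to 9.17 ± 0.03 with LPS against 8.55 ± 0.07 in control. Ptpn22, a phosphatase best known from lymphocyte signalling, fell 3.37-fold, to 7.45 ± 0.21 with LPS against 9.20 ± 0.12 in control (n = 4 each, limma adjusted p = 6.89e-10), and fell 3.26-fold with DHA5HT in both groups. The lipid phosphatase gene Inpp5d fell by 0.16 (limma adjusted p = 0.0402), a call lost in 6 of 9 leave-one-out fits. Outside these routes Plcb2, a phospholipase that makes diacylglycerol, fell by 0.18 (limma adjusted p = 0.0408). This call was also lost in 6 of 9 such fits and after quantile normalization (adjusted p = 0.0786).

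Other hydrolases than the 2 low members were above background. Naaa, the lysosomal acid amidase of N-acylethanolamines, fell by 0.68, to 8.17 ± 0.14 with LPS against 8.86 ± 0.08 in control (limma adjusted p = 7.89e-06). Abhd12, a serine hydrolase that can cleave 2-arachidonoylglycerol, fell by 0.73, to 8.98 ± 0.05 with LPS against 9.71 ± 0.04 in control (limma adjusted p = 2.73e-08). Abhd6, another such hydrolase, averaged 7.37 ± 0.04 with LPS and 7.45 ± 0.08 in control and did not pass. The fatty acid binding protein gene Fabp4 rose by 1.41 (SE 0.41, limma adjusted p = 0.0144), and its arrays spread widely, with an SD of 0.42 with LPS and 0.71 in control. Its call was lost without control array 3 (1.15, adjusted p = 0.0581). For LPS+DHA5HT against LPS limma called 0 of the 30 genes, where 1.79% of all genes were called. The unadjusted p was under 0.05 for 4 of the 30 and for 2570 of all 18820 genes.

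The serotonin pathway was read from 24 measured genes of 27 listed, among them the remaining receptors and the enzymes of serotonin synthesis and breakdown. Only 3 were above background in any group: Maoa, which encodes the monoamine oxidase of serotonin breakdown, S100a10, whose product carries a serotonin receptor to the membrane, and Tgm2, a transglutaminase that can attach serotonin to proteins. Maoa averaged 6.00 ± 0.11 with LPS and 5.78 ± 0.16 in control (n = 4 each) and did not pass. S100a10 fell by 0.16 with LPS (limma adjusted p = 0.0285), to 11.23 ± 0.08 against 11.39 ± 0.06 in control, a call lost in 6 of 9 leave-one-out fits. Tgm2 was above background in LPS+DHA5HT arrays only, at 5.09 ± 0.26, against 4.27 ± 0.04 in DHA5HT arrays (n = 4 each). The log2 difference was 0.82 (limma adjusted p = 0.000207), against values not above background. Counted from the background level of 4.72, Tgm2 was 1.30-fold higher, a value with no test. It also passed for LPS against control, at 4.93 ± 0.35 with LPS and 4.17 ± 0.12 in control (difference 0.76, limma adjusted p = 0.000438), and LPS+DHA5HT against LPS differed by 0.16 (limma adjusted p = 0.681). Tph1, the gene of serotonin synthesis outside the brain, lay at 2.84 ± 0.11 with LPS and 2.64 ± 0.05 in control. Over the 24 genes LPS gave 3 higher and 2 lower calls (20.8%, where 28.4% of all genes were called), and LPS+DHA5HT against DHA5HT gave 1 and 1 (8.33%, where 28.1% of all genes were called). The 5 LPS calls became 2 to 5 when 1 array was left out, with 2 or 3 without array 2, 3 or 4 of the LPS or of the control group, and 1 to 6 under the other settings. For LPS+DHA5HT against LPS limma called 0 of the 24 (1 without LPS+DHA5HT array 3), where 1.79% of all genes were called. The unadjusted p was under 0.05 for 5 of the 24 and for 2570 of all 18820 genes.

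**Figure D5:**
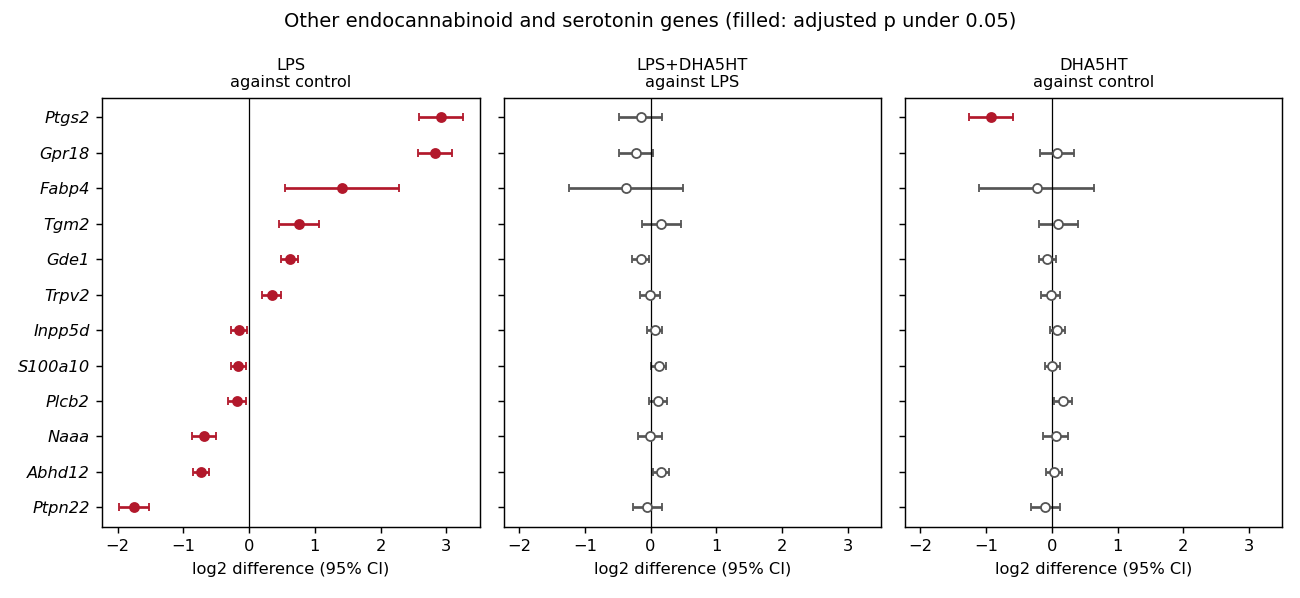
Log2 difference with its 95% confidence interval (horizontal axes) for the 12 further endocannabinoid and serotonin genes that passed in any comparison and were above background in at least 1 of its groups, ordered by their LPS change; filled red points have an adjusted p under 0.05. Ptgs2 and Gpr18 lie farthest right (2.92 and 2.82) and Ptpn22 farthest left (−1.75) for LPS, and only Ptgs2 (−0.92) has a filled point in the DHA5HT comparisons shown.

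The genes most like each LPS-lowered member over the 16 arrays were named by Pearson r among 9760 other genes above background in at least 1 group, after genes with only a provisional name and microRNA, small nucleolar RNA, olfactory and vomeronasal receptor genes were left out. For Daglb they were Dnmt1 (r = 0.991), the maintenance DNA methyltransferase, Zfp36l2 (0.991), an RNA-binding protein, and Celf2 (0.990), a splicing regulator. For Cnr2 they were B4galt6, Rufy1 and Dhrs4 (0.98 each). Dagla was most like Rnpepl1 (0.935), Vps16 (0.932) and Tuft1 (0.922), and Napepld most like Slc17a5 (0.933), Ak3 (0.932) and C5ar2 (0.929). The arrays fall into those with and without LPS, and that split enters every one of these correlations, which are given with no test.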

How the data were processed

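RNA of RAW264.7 cells was measured on 16 arrays, and groups followed the sample titles. Each deposited value is the authors' log2 intensity of a probe set, and the submitters' processing notes name RMA, which corrects background, normalizes between arrays and summarises probes. The RMA version, array annotation and any filter are not given in the sources used here. Of 35556 probe sets, 21218 named exactly 1 gene. The probe set with the highest mean over 16 arrays was kept per gene, which left 18820 genes, and each member had 1 probe set. The value table names no genome build, so gene coordinates are left out, and promoter windows are RefSeq's own on GRCm38.p6, without the bases after the start.

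Tests used limma 3.58.1 in R 4.3.3 (1 mean for each of 4 groups, fitted to the 16 arrays together with 12 residual degrees of freedom; eBayes; two-sided), with Benjamini-Hochberg adjustment over 18820 genes per comparison and a threshold of 0.05. The procedure was tested on simulated data. The labels do not say whether arrays came from separate cultures, so p-values measure the spread between these samples, which may be technical, and the number of arrays limits precision. The members and gene lists were chosen with earlier results of these data known. All 10 members are named. Other pathway genes are named where they passed in a comparison and were above background in 1 of its groups. Abhd4, Abhd6, Cnr1, Maoa and Tph1 were named after their values were seen, and Il12b, Il23a and Il6 serve as a scale. Alternatives were a replicate block, an eBayes trend, a filter at the background level, quantile normalization, centring, all probe sets, array weights, a fit on the compared arrays, other thresholds, other background levels and leaving out each array. Figures used matplotlib 3.10.9 in Python 3.11.15.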

Additional observations from a re-analysis of the deposited data

Results flagged for a closer look

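Among 40 sets of 4 arrays (10 members in 4 groups), 2 held an array far from the other 3 by Dixon's criterion, and chance flags about 5% of such sets, which is 2 of 40. Daglb read 8.75 on DHA5HT array 3, and the other DHA5HT arrays lay between 8.55 and 8.57. Htr7 read 3.65 on control array 2, and the other control arrays lay between 3.34 and 3.36, all below the background level of 4.72.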

How the results depend on the processing

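The 10 members in 5 comparisons gave 960 values under alternative settings, of which 951 kept their side of the threshold, 9 lost a call and 0 reversed a called direction. The lost calls were those of Daglb for LPS+DHA5HT against LPS and of Napepld for LPS against control. For LPS+DHA5HT against LPS the number of members called was 1, and it was 0 with all probe sets tested (Daglb adjusted p = 0.0605, with 35556 tests in place of 18820), 0 in the fit on the compared arrays alone, 0 at a threshold of 0.01, and 0 to 1 when each array was left out. It was 0 without LPS+DHA5HT array 1, LPS+DHA5HT array 3 or LPS array 2. Over all genes this comparison called 337, but 180 without LPS+DHA5HT array 1, 154 without LPS+DHA5HT array 4, 143, 222, 223 and 177 without LPS array 2, 1, 3 and 4, 530 among 10094 genes after the filter, 139 with all probe sets, 86 in the fit on the compared arrays alone, and 81 and 619 at thresholds of 0.01 and 0.1. The interaction called 62 genes, with 28 for all probe sets, 28 at 0.01, and 35, 37, 34 and 41 without DHA5HT array 1, LPS array 1, LPS array 2 and control array 2. The cause of these shifts was not tested, apart from the number of tests, of arrays or the threshold itself. For LPS against control 4 to 5 members were called under every setting, and for LPS+DHA5HT against DHA5HT 4 under each. The filter leaves out Faah and the other 5 low members. With the median of the background list as the level 6 members counted as above background, and with the median over all genes or the group mean 4 did. No member had another probe set, so that alternative could not be run. The same alternatives for the other pathway genes were chosen after seeing the data.

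Arrays share replicate numbers across groups, and the labels do not say what a number marks. Deviations from the group means correlated by 0.07 to 0.23 between same-numbered arrays (24 pairs, 19 of them over 0.1) and by −0.20 to 0.16 between others, and the best match in another group had the same number in 42 of 48 cases, which is a hint from the data, not from the design. With the replicate block 5, 1, 0, 4 and 0 members were called for LPS against control, LPS+DHA5HT against LPS, DHA5HT against control, LPS+DHA5HT against DHA5HT and the interaction, as without it. Over all genes the block called 647 for LPS+DHA5HT against LPS, 179 (113 without it) for DHA5HT against control and 96 for the interaction.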

Other observations

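Several genes of the wider lists passed for LPS against control while no group had all 4 arrays above the background level of 4.72, so their differences lie between values not above background. Gpr55, a receptor of lysophosphatidylinositol discussed as a further cannabinoid receptor, averaged 4.00 ± 0.18 with LPS and 3.53 ± 0.12 in control (n = 4 each, difference 0.47, limma adjusted p = 0.00265). With DHA5HT in both groups it averaged 3.89 ± 0.17 with LPS and 3.44 ± 0.18 without (difference 0.46, limma adjusted p = 0.0034). Tph2, the gene of serotonin synthesis in neurons, averaged 4.30 with LPS and 4.57 in control (difference −0.28, limma adjusted p = 0.0326), and differed by −0.35 with DHA5HT in both groups (limma adjusted p = 0.0072). The vesicular monoamine transporter gene Slc18a2 differed by 0.22 (limma adjusted p = 0.0356) and the serotonin-gated channel subunit gene Htr3b by 0.29 (limma adjusted p = 0.00994). In LPS+DHA5HT against DHA5HT neither passed, with −0.15 for Slc18a2 (limma adjusted p = 0.177) and 0.07 for Htr3b (limma adjusted p = 0.61). Of the 47 genes that macrophages should lack, LPS against control called 2 higher and 2 lower, where 28.4% of all genes were called. LPS+DHA5HT against DHA5HT called 3 of them higher and 0 lower, where 28.1% of all genes were called. Gpr55, Tph2, Slc18a2 and Htr3b were named here after their values were seen.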
